A study of Mus musculus with 8 samples.

Results

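The genes described here are 8 genes of phosphate and pyrophosphate handling during mineralisation, Alpl, Phospho1, Smpd3, Enpp1, Slc20a1, Slc20a2, Phex and Fam20c, chosen by symbol, and all 8 were found among the 17631 genes of the authors' comparison. RNA was sequenced from the apical part, where the root grows, of lower first molars of C57BL/6 mice at postnatal day 7.5. The mutant group was Gli1-CreERT2;Runx2fl/fl and the control group Runx2fl/fl, with 4 libraries each, so both carried floxed alleles of the osteoblast transcription factor gene Runx2 and the mutants alone carried the recombinase. Tamoxifen, which activates it, was injected intraperitoneally on postnatal day 3.5 (1.5 mg for each 10 g of weight), per a protocol that the labels give for all samples of both groups. The recombinase is driven by Gli1, a gene active in hedgehog-responsive cells that include root progenitors, so cells outside that lineage kept Runx2, and effects of the driver and of the deletion cannot be told apart. The labels do not say whether a library is 1 animal or several, and p-values measure the spread between libraries, which may be technical.

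Mineral forms where phosphate is plentiful and pyrophosphate, a strong inhibitor of crystal growth, is scarce. Alpl encodes tissue-nonspecific alkaline phosphatase, which breaks down extracellular pyrophosphate, while Enpp1 makes pyrophosphate from nucleotide triphosphates. In tooth roots this balance is known for its effect on cementum, the mineralised layer to which the periodontal ligament attaches: cementum is thin when alkaline phosphatase is lost and thick when Enpp1 is lost. PHOSPHO1 frees phosphate from phosphocholine inside matrix vesicles, SMPD3 releases phosphocholine from sphingomyelin, SLC20A1 and SLC20A2 carry phosphate into cells, PHEX is a membrane endopeptidase whose loss causes X-linked hypophosphataemia in humans and mice, and FAM20C phosphorylates secreted matrix proteins.

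None of the 8 genes passed the threshold, a Benjamini-Hochberg adjusted p under 0.05 over all genes in the authors' deposited Partek gene-specific analysis, in which 139 of 17631 genes passed (0.788%), 56 of them lower in the mutant (0.318%) and 83 higher (0.471%). At an unadjusted p under 0.05 there were 2 of the 8 in the authors' deposited table, Fam20c and Phospho1, both with a lower mean in the mutant, against 9.4% of all genes in that direction, 9.89% in the other, where no member stood, and 19.3% in either. That is 25.0% of 8 genes, against 19.3% of all genes in either direction and 9.4% in the lower direction, where both stood. The difference in shares was not tested. Of the 8 genes, 5 had a lower and 3 a higher mean in the mutant, and the median log2 ratio of mutant over control was -0.036, against 0.0033 for all genes. With the groups scaled to equal sums over all genes, 3 were lower and the median was 0.10, against 28.2% of all genes lower and a median of 0.14 over all genes. That scaling moves every log2 ratio up by 0.14.

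**Figure D1:**
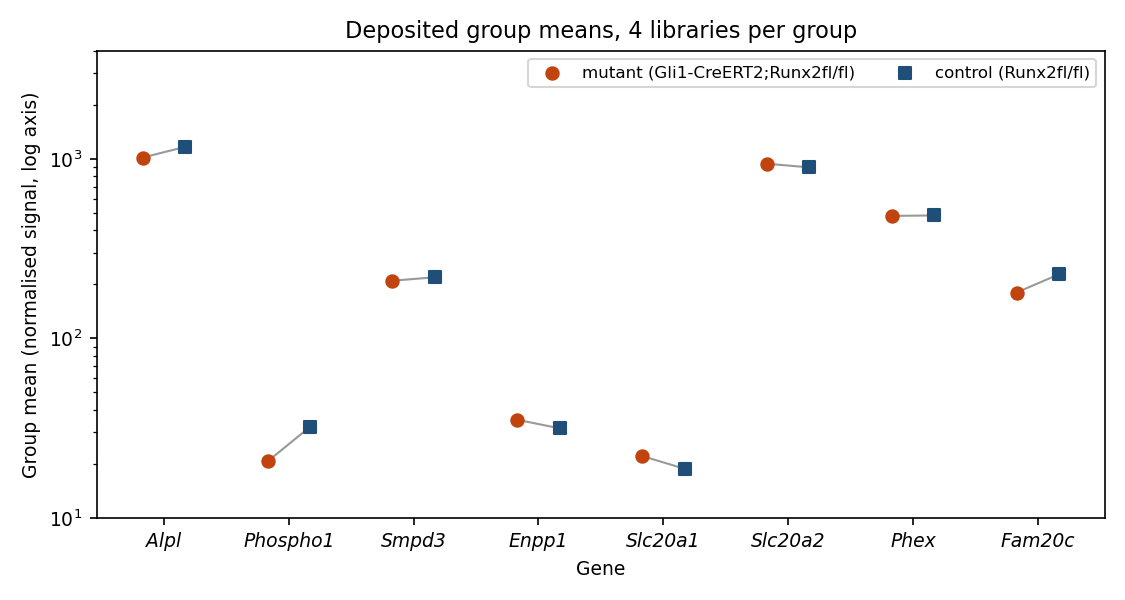
Group means (normalised signal, log axis) of the 8 genes in the mutant (circles, left of each pair) and the control (squares, right), 4 libraries per group, with no error bars because the values are group means. Phospho1 and Fam20c have the steepest lines, at 20.6 in the mutant against 32.1 in the control for Phospho1 and 180.0 in the mutant against 227 in the control for Fam20c, while those of Phex nearly coincide.

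Because Runx2 is the deleted gene, the promoters of these genes were searched for the core letters of the RUNX binding motif, TGTGGT or TGCGGT, on either strand. The windows run from 250 bases before to 50 bases after a transcription start (RefSeq, GRCm38.p6, gene strand), and 6 of the 8 genes had at least 1 window, 8 windows in all; Slc20a2 and Smpd3 had none. Either motif was present in 3 of these 8 windows (37.5%), those of Phospho1, Slc20a1 and Enpp1, against 22.4% of all 32851 windows in the same table. Of all windows, 16.8% held TGTGGT and 6.45% held TGCGGT, and a window with several matches counted once. Neither Alpl window, nor those of Fam20c and Phex, nor a second Slc20a1 window held either motif. The windows of the 3 genes with a match and of Fam20c, the gene with the lowest p, are given below 5′ to 3′, with each match in capitals.
Phospho1, chr11:95824250-95824549, plus strand: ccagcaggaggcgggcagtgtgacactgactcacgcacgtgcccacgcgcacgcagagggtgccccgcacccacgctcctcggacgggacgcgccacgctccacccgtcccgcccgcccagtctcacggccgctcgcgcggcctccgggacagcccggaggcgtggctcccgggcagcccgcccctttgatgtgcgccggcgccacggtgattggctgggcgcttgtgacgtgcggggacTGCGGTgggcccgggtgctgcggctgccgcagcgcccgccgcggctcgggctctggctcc
Slc20a1, chr2:129198523-129198822, plus strand: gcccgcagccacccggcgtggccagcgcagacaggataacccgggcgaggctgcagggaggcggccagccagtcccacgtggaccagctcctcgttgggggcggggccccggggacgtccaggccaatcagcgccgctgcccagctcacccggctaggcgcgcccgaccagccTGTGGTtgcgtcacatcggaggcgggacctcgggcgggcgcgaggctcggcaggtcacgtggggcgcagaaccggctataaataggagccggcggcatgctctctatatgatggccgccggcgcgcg
Enpp1, chr10:24712110-24712409, minus strand: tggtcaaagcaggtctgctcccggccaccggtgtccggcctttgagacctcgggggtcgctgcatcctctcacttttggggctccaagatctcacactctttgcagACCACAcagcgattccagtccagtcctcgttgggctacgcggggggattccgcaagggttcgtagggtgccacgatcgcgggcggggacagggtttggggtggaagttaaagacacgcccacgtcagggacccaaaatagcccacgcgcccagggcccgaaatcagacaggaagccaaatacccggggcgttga
Fam20c, chr5:138754831-138755130, plus strand: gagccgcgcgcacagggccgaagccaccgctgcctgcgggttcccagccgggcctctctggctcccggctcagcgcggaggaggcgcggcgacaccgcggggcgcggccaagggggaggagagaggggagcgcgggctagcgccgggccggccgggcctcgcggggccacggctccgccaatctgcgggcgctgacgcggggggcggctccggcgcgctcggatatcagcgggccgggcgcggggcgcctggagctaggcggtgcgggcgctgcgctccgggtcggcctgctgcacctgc
The TGCGGT of Phospho1 begins 10 bases before the start, the TGTGGT of Slc20a1 begins 77 bases before it, and the ACCACA of Enpp1, which is TGTGGT on the other strand, begins 144 bases before it. The windows are rich in G and C, at 77.0% for Phospho1, 73.0% for Slc20a1, 61.7% for Enpp1 and 80.7% for Fam20c, against a median of 52.7% over all windows. Phospho1 had a lower mutant mean, while Slc20a1 and Enpp1 had higher ones, so the means of the genes with a match did not share a direction. None of these 3 differences passed the threshold, and the sign of Enpp1 depended on a correction for GC and length given below.

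The targeted gene Runx2 had means of 65.1 in mutant molars and 106 in control molars, per the authors' deposited table, with an adjusted p of 0.0646, just outside the threshold. That value covers the whole gene and all cells of the tissue. Gli1, which drives the recombinase, had 19.9 in mutant molars and 38.8 in control molars, per the authors' deposited table (adjusted p = 0.0228). The sampled tissue held transcripts of odontoblasts, osteoblasts and ameloblasts, all of which can express mineralisation genes. Summed levels of the osteoblast markers were 46915 in mutant molars and 48812 in control molars. With the abundant collagen gene Col1a1 left out, they were 1724 in mutant molars and 3100 in control molars. Bglap made up most of these, at 1252 in mutant molars and 2234 in control molars. No gene was left out of the ameloblast and odontoblast sums that follow, so they are not comparable with the reduced osteoblast sums. All 6 osteoblast markers had lower mutant means, of which Col1a1 alone turned higher with equal sums, and 2 of them, Sp7 and Bglap, passed the threshold. Runx2, the targeted gene, is itself among these 6 markers and in both osteoblast sums. Summed levels of 6 ameloblast markers were 177014 in mutant molars and 260990 in control molars, with 5 of 6 lower and none past the threshold. Amelx and Ambn held most of both sums. Amelx had 112174 in mutant molars and 174946 in control molars, per the authors' deposited table (unadjusted p = 0.181). Ambn had 53601 in mutant molars and 72752 in control molars, per the authors' deposited table (unadjusted p = 0.222). Among the other ameloblast markers, 2 had an unadjusted p under 0.05, both lower. Summed levels of 4 odontoblast markers, Phex among them, were 8547 in mutant molars and 8889 in control molars. Of these markers, 3 of 4 were lower (1 of 4 with equal sums over all genes) and none passed the threshold. Dspp held most of both odontoblast sums, at 7360 in mutant molars and 7714 in control molars. The cell type markers were means of whole tissue, in which fewer cells of a type and less RNA per cell cannot be told apart, and the part of these shifts in the values below was not tested.

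The table analysed gives group means and no values of single libraries. For each gene an approximate standard error was instead derived from the deposited p and the log2 ratio, assuming a t distribution with 6 degrees of freedom, and from it a 95% interval of the ratio. Over genes with a mean of at least 10 in either group, the median error so derived was 0.083 in log2 for p up to 0.05, 0.092 for p between 0.05 and 0.3, and 0.092 for p between 0.3 and 0.8. For p between 0.8 and 0.9, where Slc20a2 and Phex lie, the median was 0.084 with a 10th to 90th percentile range of 0.056 to 0.166. The derived error of Slc20a2 (0.29) lay above that range and that of Phex (0.056) at its lower end. The intervals are not adjusted for the number of genes.

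**Figure D2:**
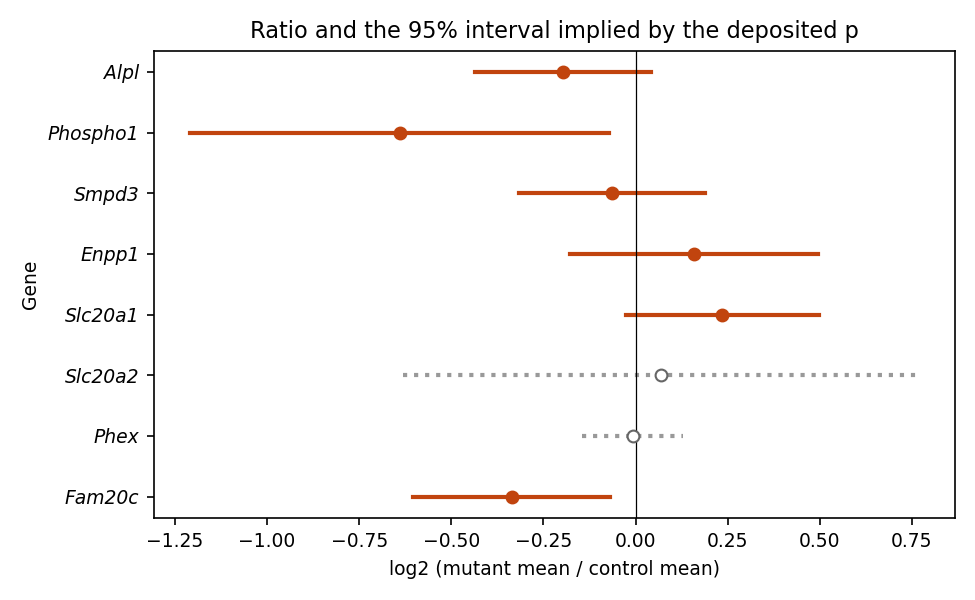
Log2 ratio of mutant over control (points) with the 95% interval derived from the deposited p (bars) for each of the 8 genes, with open points and dotted bars for genes with p above 0.8. The bars of Phospho1 and Fam20c end below 0, at -0.071 and -0.069, and those of the other 6 genes cross 0.

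Among the enzymes that release phosphate or remove pyrophosphate, Alpl (chromosome 4, 137741733 to 137796384, minus strand, GRCm38) had means of 1017 in mutant molars and 1166 in control molars, per the authors' deposited table. The mutant mean was 87.2% of the control mean, a log2 ratio of -0.20 (derived SE 0.10), and the adjusted p in the authors' deposited table was 0.331. The interval of the ratio ran from 0.739 to 1.03, which includes 1 but also a loss of over 20% of the control level. Alpl is made by osteoblasts, by odontoblasts and by cells next to the ameloblasts, so its value mixes sources.

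Phospho1 (chromosome 11, 95824499 to 95832140, plus strand) had the ratio farthest from 1 of the 8 genes as deposited and under each scaling tried. Its means were 20.6 in mutant molars and 32.1 in control molars, per the authors' deposited table, 1.56-fold lower, with p = 0.0331 before and 0.218 after adjustment. The log2 ratio was -0.64 (derived SE 0.23), the interval of the ratio ran from 0.433 to 0.952, and 3.60% of all genes had a lower ratio. This value is uncertain for another reason. In GENCODE M21, 1818 of the 2029 exonic bases of Phospho1 are also exonic in Zfp652, on the same strand, and 1708 in Abi3, on the other strand. Zfp652 had 86.5 in mutant molars and 81.4 in control molars, per the authors' deposited table (adjusted p = 0.580), and Abi3 had 4.58 in mutant molars and 4.59 in control molars (adjusted p = 0.974). Zfp652 thus had a higher mutant mean and Abi3 nearly equal means; how reads were split among the 3 genes is not known here, and the part of these neighbours in the Phospho1 value was not tested. Subtracting the dependence of the ratios on GC content and length of transcripts (the GC and length trend) left Phospho1 at a log2 ratio of -0.46. Its adjusted p after that subtraction was 0.623. Where GC and length were those of the longest transcript, its unadjusted p was 0.247, no longer under 0.05.

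Smpd3, whose neutral sphingomyelinase acts upstream of PHOSPHO1 in supplying phosphocholine, lies on chromosome 8 (106252548 to 106337988, minus strand). Its means were 209 in mutant molars and 219 in control molars, per the authors' deposited table (adjusted p = 0.775). The log2 ratio was -0.064 (derived SE 0.10) with an interval of the ratio from 0.804 to 1.14, and it turned to 0.073 with equal sums over all genes and to 0.0037 with the GC and length trend subtracted (-0.033 where GC and length were those of the longest transcript). Relative to Phospho1, Smpd3 was 1.49-fold higher in the mutant than in the control, and 1.38-fold higher after the GC and length subtraction. This compares the quotient of both genes between groups, in which gene length cancels, and it was not tested.

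On the side that makes pyrophosphate, Enpp1 (chromosome 10, 24637914 to 24712159, minus strand) had means of 35.2 in mutant molars and 31.5 in control molars, per the authors' deposited table (adjusted p = 0.569). The log2 ratio of 0.16 (derived SE 0.14) had an interval of the ratio from 0.885 to 1.41, and it turned to -0.0075 when the GC and length trend was subtracted (0.026 where GC and length were those of the longest transcript). The quotient of Enpp1 over Alpl, which sets the maker of pyrophosphate against the enzyme that removes it, was 1.28-fold higher in the mutant than in the control, without a test. It was 1.09-fold higher after the GC and length subtraction, which is a log2 difference of 0.12 against 0.36 as deposited. The quotient of Phospho1 over Alpl, both phosphatases, was 0.736 times the control value in the mutant, and 0.796 times after the subtraction.

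Both sodium-dependent phosphate transporters had higher mutant means. Slc20a1 (chromosome 2, 129198764 to 129211616, plus strand) had 22.1 in mutant molars and 18.8 in control molars, per the authors' deposited table, with p = 0.0691 before and 0.294 after adjustment. Its log2 ratio was 0.24 (derived SE 0.11), the highest of the 8 genes, with an interval of the ratio from 0.983 to 1.41, and 79.8% of all genes had a lower ratio. Slc20a2 (chromosome 8, 22476788 to 22569612, plus strand) had 939 in mutant molars and 896 in control molars, per the authors' deposited table (adjusted p = 0.919), a log2 ratio of 0.068 (derived SE 0.29) with an interval of the ratio from 0.646 to 1.70. The quotient of Slc20a2 over Slc20a1 was 0.890 times the control value in the mutant, without a test. Both kept a higher mutant mean under all 6 scalings and corrections tried. Slc20a1 shares 280 exonic bases with Gm4430 and 452 with 9830144P21Rik on the other strand, and Slc20a2 shares 95 with Smim19, while Smpd3 shares 247 with Prmt7.

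Phex (chromosome X, 157162075 to 157415312, minus strand), a gene of odontoblasts, osteoblasts and osteocytes, had means of 481 in mutant molars and 484 in control molars, per the authors' deposited table (adjusted p = 0.955). The log2 ratio was -0.0078 (derived SE 0.056) with an interval of the ratio from 0.904 to 1.09, and 48.2% of all genes had a lower ratio. It turned to 0.13 with equal sums over all genes and to 0.012 with equal sums without the 20 most abundant genes, and it stood at -0.25 after the GC and length subtraction. Phex has the lowest transcript GC content of the 8 genes, 40.1%, against 63.5% for Phospho1, the highest. Phex is X-linked, and the sex of the animals is not given in the labels. The Y-linked gene Ddx3y had means of 25.6 in mutant molars and 12.9 in control molars, per the authors' deposited table (adjusted p = 0.0486). Kdm5d, also Y-linked, had 7.74 in mutant molars and 4.14 in control molars, per the authors' deposited table (adjusted p = 0.167), and Xist, expressed from the inactive X, had 15.0 in mutant molars and 18.4 in control molars (adjusted p = 0.457). The part of sex in the values of these 8 genes was not tested.

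Fam20c (chromosome 5, 138754514 to 138810077, plus strand), the Golgi kinase of secreted phosphoproteins, had the lowest p of the 8 genes. Its means were 180.0 in mutant molars and 227 in control molars, per the authors' deposited table, 1.26-fold lower, with p = 0.0216 before and 0.187 after adjustment. The log2 ratio was -0.34 (derived SE 0.11), the interval of the ratio ran from 0.658 to 0.953, and 10.4% of all genes had a lower ratio. It kept a lower mutant mean in every scaling and correction tried, from -0.20 with equal sums over all genes to -0.34 when centred on the median of all genes. After the GC and length subtraction its log2 ratio was -0.27, with an adjusted p of 0.416. Where GC and length were those of the longest transcript, its unadjusted p was 0.0911, no longer under 0.05. Exons of Fam20c, Alpl, Enpp1 and Phex overlap those of no other gene in GENCODE M21.

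**Figure D3:**
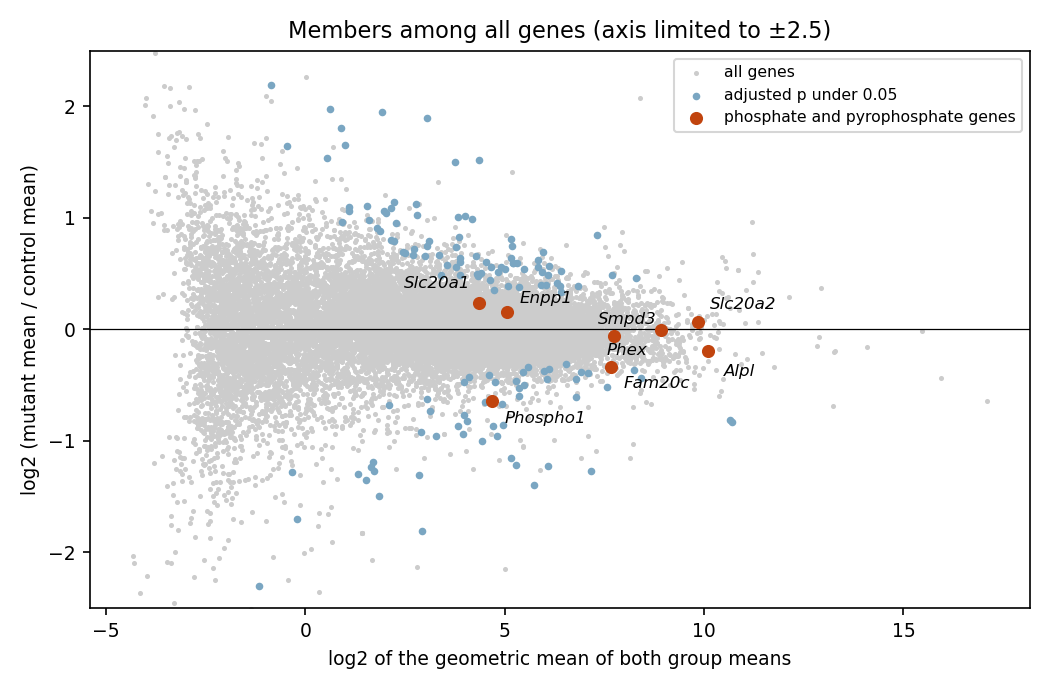
Log2 ratio of mutant over control (y axis, limited to 2.5 either way, which leaves out 21 genes) against log2 of the geometric mean of both group means (x axis) for all genes (grey), those past an adjusted p of 0.05 (blue) and the 8 genes (red, named). Phospho1 and Fam20c lie lowest of the 8, at -0.64 and -0.34, and none of the 8 is blue.

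The wider pathway, 42 further genes measured in 6 lists, gave no gene past an adjusted p of 0.05. At an unadjusted p under 0.05 there were 3 higher and 6 lower in the authors' deposited table, which is 21.4% against 19.3% of all genes. Among 9 other pyrophosphate and nucleotide genes (median log2 ratio -0.12, or 0.022 with equal sums over all genes and -0.27 after the GC and length subtraction, with 2 higher and 3 lower at an unadjusted p under 0.05), Ank, whose membrane protein exports ATP, a source of extracellular pyrophosphate, had 94.1 in mutant molars and 131 in control molars, per the authors' deposited table (adjusted p = 0.113). Panx3, a channel gene of osteoblasts and odontoblasts, had 34.5 in mutant molars and 47.4 in control molars, per the authors' deposited table (adjusted p = 0.112). Enpp3, an ectonucleotidase related to Enpp1, had 22.5 in mutant molars and 12.5 in control molars, per the authors' deposited table (adjusted p = 0.124), a log2 ratio of 0.84. Thus Enpp1 and Enpp3 had higher means and Ank and Panx3 lower ones, with no call among them.

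Of the other phosphate transporters, 3 were measured, with a median log2 ratio of 0.060 and none past the threshold. The phosphate exporter gene Xpr1 had 212 in mutant molars and 159 in control molars, per the authors' deposited table (unadjusted p = 0.0450, adjusted p = 0.249). The mitochondrial phosphate carrier gene Slc25a3 had a log2 ratio of -0.099 (0.039 with equal sums over all genes) and Slc34a2, a cotransporter of epithelia, 0.060. Slc34a1, Slc34a3 and Slc17a1 do not have a row in the table analysed. Among 6 genes of systemic phosphate regulation (median -0.065, or 0.072 with equal sums over all genes) no gene had an unadjusted p under 0.05. Those with the lowest p were the parathyroid hormone receptor gene Pth1r at a log2 ratio of -0.16, Fgfr1, which encodes a receptor of the phosphate hormone FGF23, at -0.071 (0.067 with equal sums over all genes), and the vitamin D receptor gene Vdr at 0.099. Fgf23 and Cyp24a1 were chosen for this list but had no values. Kl, at 0.33 in mutant molars and 0.29 in control molars, and Cyp27b1, at 0.25 and 0.29, had low means.

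The 13 genes of phospholipid supply and matrix vesicle annexins lay between -0.18 and 0.28 in log2 ratio, with a median of -0.033, 9 of them lower, and no unadjusted p under 0.05. With equal sums over all genes 1 was lower and the median was 0.10, against 28.2% of all genes lower and a median of 0.14 over all genes. They include the phosphodiesterase gene Enpp6, at 128 in mutant molars and 105 in control molars, per the authors' deposited table (adjusted p = 0.398). The choline kinase gene Chkb stood at a log2 ratio of -0.18 and the lysosomal sphingomyelinase gene Smpd1 at -0.12 (0.018 with equal sums over all genes). The log2 ratio of Phospho1 (-0.64) lay outside that range and that of Smpd3 (-0.064) inside it. Of the other secretory pathway kinases, Pkdcc had 87.8 in mutant molars and 104 in control molars, per the authors' deposited table (unadjusted p = 0.0242, adjusted p = 0.195). Fam20a, the FAM20C-activating pseudokinase gene of enamel, had 174 in mutant molars and 224 in control molars, per the authors' deposited table (adjusted p = 0.274), and Fam20b, a xylose kinase gene, had a log2 ratio of 0.073 (-0.031 after the GC and length subtraction).

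All 8 genes of the list of FAM20C substrates of dentin, bone and enamel had lower mutant means, with a median log2 ratio of -0.50, while 49.4% of all genes had lower means. Mepe, which counts in that median at -0.56, had the lowest means of the list. These were 0.41 in mutant molars and 0.60 in control molars, per the authors' deposited table (adjusted p = 0.860). With equal sums over all genes 7 of the 8 were lower, against 28.2% of all genes, and Dspp, the main dentin matrix gene, turned from -0.068 to 0.070. The direction of these genes was known from earlier results of these data, and none passed the threshold. At an unadjusted p under 0.05 were Spp1 (log2 ratio -1.26) and Ibsp (-1.16), both bone matrix genes. Amelx, the main enamel matrix gene and the third by p, stood at -0.64. Fam20c itself stood at -0.34. Of the substrate genes, Amelx, Ambn and Enam are also ameloblast markers and Ibsp an osteoblast marker in the sums given above, Dspp and Dmp1 are odontoblast markers, Dmp1 and Mepe osteocyte markers, and the part of those shifts in the list was not tested.

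**Figure D4:**
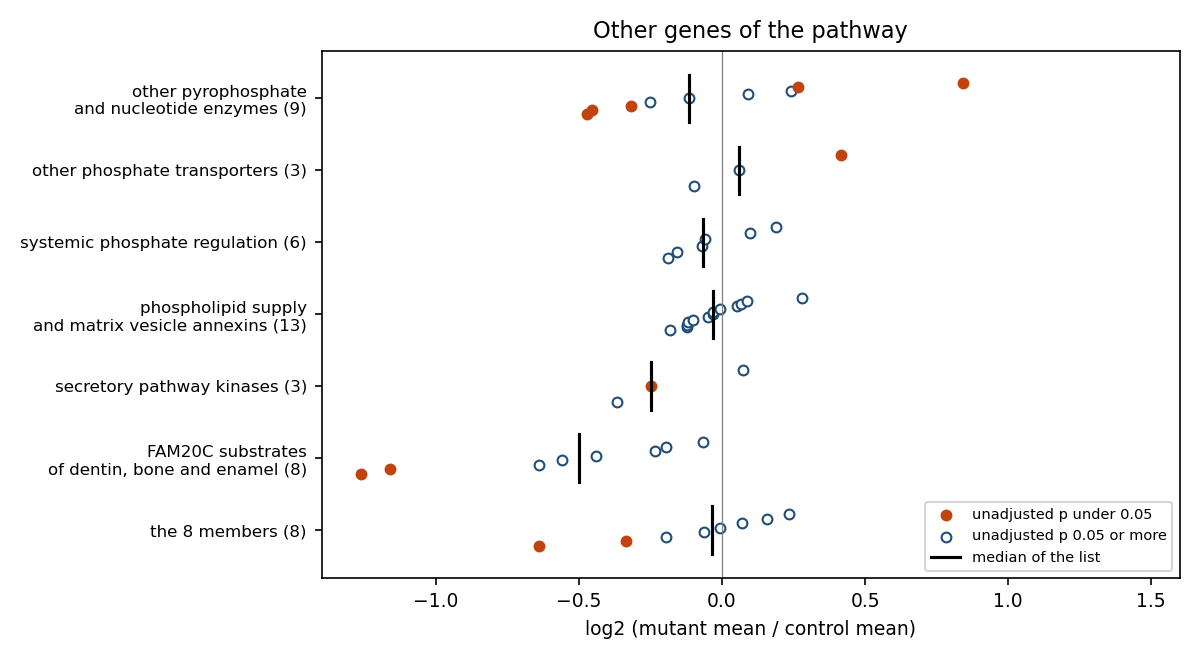
Log2 ratio of mutant over control for each gene of the 6 wider lists and for the 8 genes (points, filled where the unadjusted p is under 0.05, with black bars for list medians and gene counts in brackets). The FAM20C substrates lie below 0 as deposited, with a median of -0.50 (Dspp turns to 0.070 with equal sums over all genes), and the phospholipid and annexin list stays between -0.18 and 0.28.

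**Figure D5:**
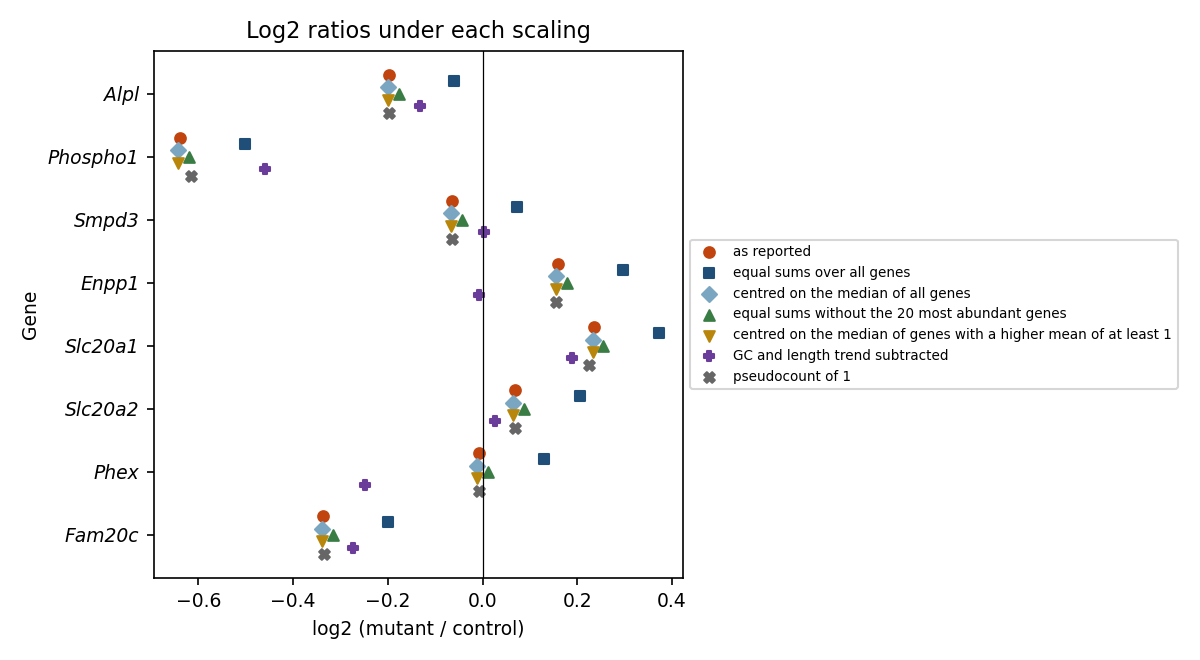
Log2 ratio of mutant over control of the 8 genes as deposited and under 6 other scalings or corrections (symbols). Phospho1, Fam20c and Alpl stay below 0 and both Slc20 genes above 0 in all 7, while Smpd3, Enpp1 and Phex cross 0 in at least 1.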

How the data were processed

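A single table was analysed. The submitters' processing notes name STAR 2.6.1d, Partek and mm10 with no role; annotation, counting, strand use, normalisation and test model are not stated there. Per the file headers, the authors' deposited table holds both group means per gene (normalised signal on a linear scale, not counts), the ratio of mutant over control, a signed fold change (a score), the p-value and an adjusted p. The adjusted p equalled the Benjamini-Hochberg adjustment for all 17631 genes. Depth per library is unknown from these values; the group means sum to 955256 (mutant) and 1050684 (control).

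Log2 ratios, medians, quotients and derived errors were computed in Python 3.11.15 (scipy 1.17.1). Gene positions, transcript GC content and exonic length came from GENCODE M21 (GRCm38, the assembly of mm10), matched by symbol for 99.6% of genes. The GC and length trend was fitted with smooth terms on the signed z of each p and on the log2 ratio (mgcv 1.9.3, R 4.3.3). It took 21.4% of the variance of z. The procedure was also run on simulated data, which does not show that the correction suits these data. Other scalings, a pseudocount of 1 and other thresholds were tried.

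The genes named are the 8, Runx2, Gli1 and the 3 of lowest p in each other list. Sp7, Bglap, Col1a1, Dspp, Dmp1, Mepe, Ambn, Enam, Zfp652 and Abi3 were added after their values were seen. So were Gm4430, 9830144P21Rik, Smim19, Prmt7, Ddx3y, Kdm5d, Xist, Kl and Cyp27b1. Members and lists were chosen with earlier results of these data known. Of the other marker lists, erythroid genes summed to 424 (mutant) and 944 (control). All 5 erythroid genes had lower mutant means at an unadjusted p under 0.05 in the authors' deposited table, and 1 passed the adjusted threshold. The part of this shift in the values of the 8 genes was not tested. No gene of the lists that follow passed. Skeletal muscle genes summed to 2.41 (mutant) and 4.87 (control), osteocyte genes to 46.3 (mutant) and 55.1 (control), and cartilage genes to 179 (mutant) and 161 (control). Endothelial genes summed to 208 (mutant) and 186 (control), macrophage genes to 254 (mutant) and 228 (control), and neutrophil genes to 10.3 (mutant) and 8.71 (control). In the pyrophosphate list Ankh is another name of Ank, and Abcc6 had no values.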

Additional observations from a re-analysis of the deposited data

How the results depend on the processing

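No call was made among the 8 genes at an adjusted p under 0.05 or under 0.1, when p-values were adjusted over genes with a mean of at least 1 in either group (lowest adjusted p 0.159) or after the GC and length subtraction (lowest 0.416). At an unadjusted p under 0.05, an alternative chosen after seeing the data, 2 were lower and 0 higher. Both of these, Fam20c (0.0911) and Phospho1 (0.247), had an unadjusted p above 0.05 after the subtraction with the longest transcript. Over all genes, 139 passed as deposited and, after the subtraction, 3 lower and 7 higher. With GC and length of the longest transcript instead, also chosen after seeing the data, 8 lower and 14 higher genes passed, so this count depends on how both are defined; none of the 8 genes was called, and Smpd3 and Enpp1 kept their deposited signs. With equal sums over all genes, 3 genes instead of 5 had lower means, the median went from -0.036 to 0.10, and Smpd3 (0.073) and Phex (0.13) reversed; with the 20 most abundant genes left out of the sums, Phex reversed (0.012). After the GC and length subtraction, Smpd3 (0.0037) and Enpp1 (-0.0075) reversed. With equal sums over all genes the median over all genes was 0.14, against 0.023 with the 20 most abundant genes left out. Most of that shift thus lay in the most abundant genes. Amelx alone had means of 112174 (mutant) and 174946 (control), of summed group means of 955256 (mutant) and 1050684 (control). The cause of the reversals after the GC and length subtraction was not tested. The other member directions, out of 48, had the sign given in the report. Intervals from a normal distribution were 0.836 to 1.07 times as wide. No paired analysis was possible because the values are group means; for the same reason leaving out single libraries was not run. The protein comparison was not run. Means without counts give no depth, so no limit on low values can be set.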
